A study of Mus musculus with 10 samples.

Results

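The immediate early genes examined here are 10 genes that cells switch on from factors already present: Fos, Fosb, Jun, Junb, Egr1, Egr2, Atf3, Nr4a1, Dusp1 and Ccn1. They were taken as a fixed list of symbols. Each was measured by the probe set that the array annotation pairs with that symbol alone and, where a gene had more than 1, by its brightest probe set, averaged over the 10 arrays. All 10 were found, on 13 probe sets, among 17097 genes measured. Their RNA was read in epididymal white adipose tissue, the fat pad beside the testis, of male mice fed a diet with 45 energy% of fat for 16 weeks from an age of 8 to 12 weeks. WT mice (n = 4) were compared with mice lacking ASC, the adaptor of the inflammasome (ASC-/-, n = 3), and with mice lacking the protease caspase-1 (Casp1-/-, n = 3). The labels place every mouse on a C57/Bl6 background and list the ASC-/- animals as ASC1 null under genotype. All groups ate the same diet, so none shows these genes in lean fat, and the labels do not say whether controls were littermates.

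Immediate early genes are transcribed within minutes of a growth factor, a hormone, stretch or tissue injury, without new protein synthesis, and their RNA is short-lived. MAP kinases and cyclic AMP signals reach their promoters through serum response factor and its partners and through CREB. Fos, Jun and Atf3 proteins pair through leucine zippers and bind AP-1 or CRE sequences, EGR proteins and Nr4a1 are zinc finger transcription factors, Dusp1 switches MAP kinases off, and Ccn1 is a secreted matrix protein. In fat they respond in adipocytes, stromal cells, vessels and macrophages.

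Promoters of 5 members are printed because 4 of these genes (Fos, Egr2, Atf3 and Dusp1) differed between genotypes below and the other (Ccn1) followed another pattern. Each window runs 5′ to 3′ on the gene's own strand, from 250 bases before to 50 bases after a RefSeq start, in build GRCm38.p6. Capitals mark the CRE, CArG and TATA letters searched. The Fos window is chr12:85473640-85473939 (plus strand), that of Egr2 chr10:67537619-67537918 (plus strand), that of Atf3 chr1:191183284-191183583 (minus strand), that of Dusp1 chr17:26508423-26508722 (minus strand) and that of Ccn1 chr3:145649936-145650235 (minus strand).
Fos: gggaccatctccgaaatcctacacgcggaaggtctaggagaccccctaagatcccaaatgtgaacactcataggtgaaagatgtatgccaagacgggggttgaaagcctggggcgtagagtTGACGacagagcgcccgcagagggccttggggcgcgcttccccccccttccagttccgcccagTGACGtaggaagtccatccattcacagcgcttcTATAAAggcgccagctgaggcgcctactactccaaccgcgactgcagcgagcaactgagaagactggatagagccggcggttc
Egr2: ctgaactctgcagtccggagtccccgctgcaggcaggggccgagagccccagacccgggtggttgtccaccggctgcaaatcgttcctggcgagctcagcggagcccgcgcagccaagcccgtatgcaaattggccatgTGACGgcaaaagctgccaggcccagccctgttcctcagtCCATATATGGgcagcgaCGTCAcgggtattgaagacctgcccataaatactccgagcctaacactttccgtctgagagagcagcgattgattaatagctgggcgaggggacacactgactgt
Atf3: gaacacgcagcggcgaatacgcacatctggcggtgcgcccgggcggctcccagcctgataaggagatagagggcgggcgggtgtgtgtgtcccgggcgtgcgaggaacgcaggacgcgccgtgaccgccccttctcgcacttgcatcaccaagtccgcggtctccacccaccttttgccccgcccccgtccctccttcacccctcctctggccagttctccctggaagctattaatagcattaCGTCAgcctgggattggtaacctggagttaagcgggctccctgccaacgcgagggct
Dusp1: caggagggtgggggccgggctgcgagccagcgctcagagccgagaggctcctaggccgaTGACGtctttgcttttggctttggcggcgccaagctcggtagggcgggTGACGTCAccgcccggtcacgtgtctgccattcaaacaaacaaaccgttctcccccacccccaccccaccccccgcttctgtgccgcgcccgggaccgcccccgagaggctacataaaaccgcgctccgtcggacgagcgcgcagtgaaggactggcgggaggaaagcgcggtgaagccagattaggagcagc
Ccn1: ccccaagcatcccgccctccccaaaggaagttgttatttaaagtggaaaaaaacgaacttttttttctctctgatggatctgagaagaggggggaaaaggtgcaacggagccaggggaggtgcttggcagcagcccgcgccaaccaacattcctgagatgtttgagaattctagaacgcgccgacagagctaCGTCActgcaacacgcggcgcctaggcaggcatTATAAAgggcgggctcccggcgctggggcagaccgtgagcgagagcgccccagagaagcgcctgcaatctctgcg

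Windows of 9 members from the RefSeq table were searched. None of Egr1 was searched, so nothing is said here of its promoter. Egr2 had 5 windows, of which the printed one is 1 of 3 that hold both CRE and CArG letters. The short CRE, TGACG on either strand, was in at least 1 window of 8 of the 9 (Fos, Fosb, Junb, Egr2, Atf3, Nr4a1, Dusp1 and Ccn1) and of 23.0% of all 27025 genes in the table. In Fos it lies at positions -129 to -125 and -66 to -62 from the start, and a TATA box (TATAAA) lies at -33. In Atf3 it lies at -7 to -3. The full CRE, TGACGTCA, which holds the short CRE on both strands, was found at -143 in Dusp1 alone among these members and in 2.03% of all genes. The CArG box, the core of the serum response element, was found in Egr2 alone of the 9, at -72 to -63 of the printed window, against 1.81% of all genes. No letters more than 250 bases before a start were searched, so members without a match here may hold one further away. TATAAA was in Fos, Junb and Ccn1 (15.7% of all genes). It lay at -25 to -20 in Ccn1, but at 1 to 6, on the listed start itself, in Junb. The AP-1 letters TGACTCA (5.95% of all genes) and the EGR letters GCGTGGGCG (0.707%), searched on both strands, were in none of the 9. These matches describe letters and no binding was measured.

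All levels are log2 signals as deposited, and a difference of 1 is a 2-fold change. Of 23 control probe sets meant to bind no mouse RNA, array medians were 2.91 to 3.15 and the highest single value was 5.01, which serves as the upper edge of background. The deleted genes followed the labels: Pycard, which encodes ASC, was 3.20 to 3.71 in ASC-/- fat against 9.10 to 10.57 in WT, and Casp1 was 4.69 to 4.98 in Casp1-/- fat against 8.71 to 9.99 in WT. Pycard was also below every WT array in Casp1-/- fat, at 8.39 to 8.77, a difference from WT of -1.23. The tissue label held: adipocyte markers had list means of 11.76 to 12.92. Over all 10 arrays, list means ran from 7.61 to 8.80 for endothelial, 7.93 to 8.73 for fibroblast, 6.36 to 8.11 for mesothelial, 5.80 to 7.62 for neutrophil and mast cell and 7.34 to 8.05 for red blood cell markers. Means of T cell markers (4.01 to 4.70) and epididymis markers (3.37 to 4.45) lay below the background edge. Of single genes, 4 of 6 T cell and 4 of 5 epididymis markers stayed at background on every array. The epididymis mean was highest on Casp1-/- replicate 2 (4.45), as was the mesothelial mean (8.11). Whether epididymis tissue was in that sample was not tested. The mean of 24 probe sets for spike-in control transcripts was high on the Casp1-/- arrays (7.51 to 8.07) and WT replicate 1 (7.80) and low elsewhere (5.76 to 6.50), so a fit with this division as a block rests the Casp1-/- comparison on WT replicate 1 alone. The actin 3' minus 5' signal, which rises as RNA shortens, was 0.82 to 0.98 in Casp1-/-, 0.54 to 0.67 in ASC-/- and 0.46 to 1.05 in WT. The labels name no batch.

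In Casp1-/- fat 3 of the 10 members fell: Atf3 by 6.95-fold, Egr2 by 4.29-fold and Fos by 3.77-fold (limma, with p adjusted over every gene by Benjamini-Hochberg and a threshold of 0.05). Over all genes 3.86% fell in that comparison. No member rose in it, and 9 of 10 fitted differences lay below 0. Their median was -0.64, against 0.041 over all genes. On 5 members (Fos, Egr2, Atf3, Egr1 and Junb) every Casp1-/- array lay below every WT array, as was so for 9.60% of all genes. In ASC-/- fat 0 members were past the threshold in limma, where 0.0175% of all genes rose, and 2 members (Ccn1 and Dusp1) had an unadjusted p under 0.05, both higher, against 2.00% of all genes in either direction. Every alternative fit also gave 0. Only Ccn1 was higher on all ASC-/- arrays than on all WT arrays, as were 1.33% of all genes. The median difference was 0.20 against 0.0050 over all genes. Setting ASC-/- directly against Casp1-/-, 4 of 10 members were higher in ASC-/- (Fos, Atf3, Egr2 and Dusp1), against 3.85% of all genes. On 5 (these 4 and Junb) the arrays did not overlap, as for 17.3% of all genes. All 10 differences lay above 0, with a median of 0.66 against -0.042 over all genes. Fosb, which lay at background on every array, is counted in the signs and medians of each comparison. The comparisons share arrays, 4 of WT or 3 of a null genotype, so their counts are not independent of each other.

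**Figure D1:**
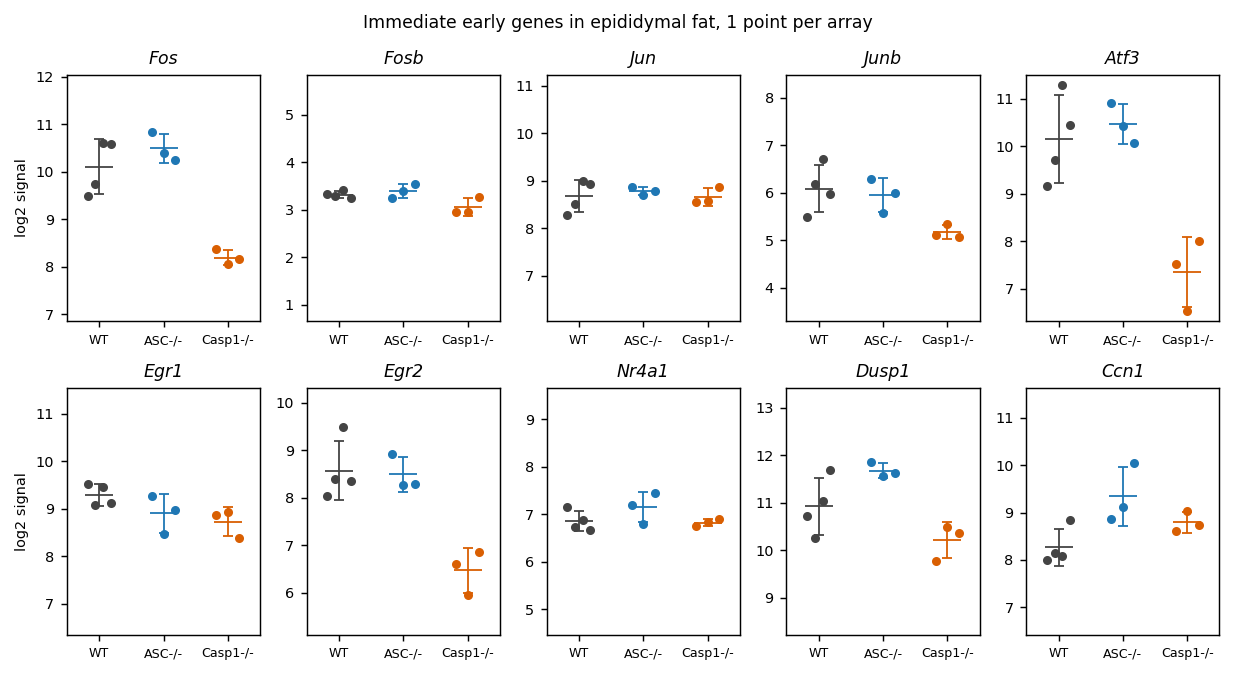
Log2 signal (y axis) of each member on the WT, ASC-/- and Casp1-/- arrays (x axis), with 1 point per array and the mean ± SD as bars. Every panel spans the same height. Fos, Egr2 and Atf3 stand apart on the 3 Casp1-/- arrays, Fos at 8.05 to 8.36 against 9.48 to 10.84 on the others.

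**Figure D2:**
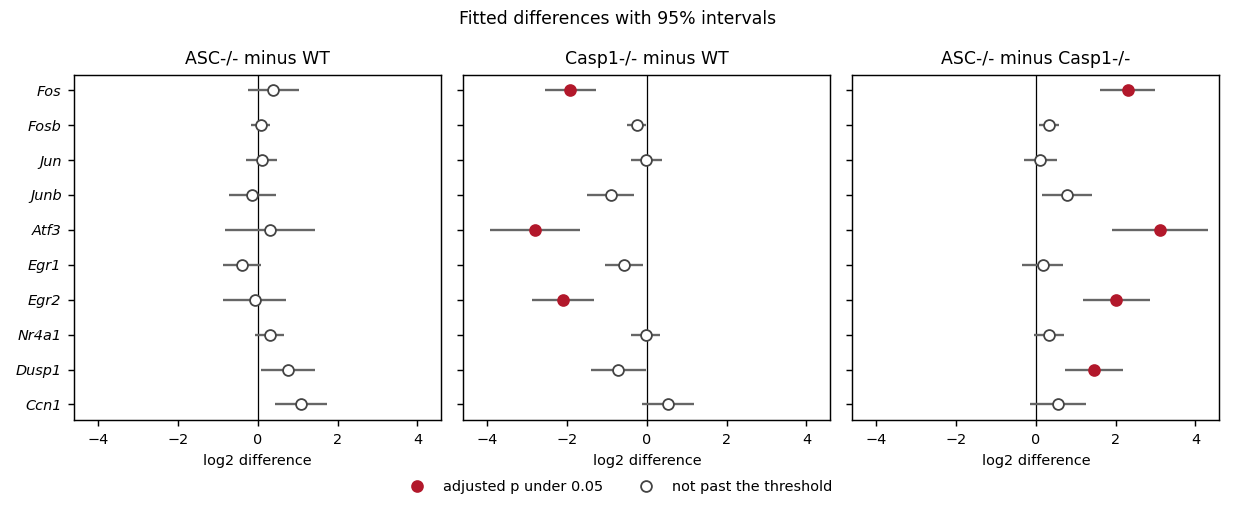
Fitted log2 differences (x axis) of the 10 members in the 3 comparisons, with 95% intervals as lines and members past the threshold filled. In Casp1-/- minus WT the intervals of Fos, Atf3 and Egr2 end at -1.27, -1.67 and -1.32, while that of Jun spans -0.41 to 0.37.

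Fos encodes the AP-1 subunit that pairs with Jun proteins. It was 9.48, 9.74, 10.61 and 10.59 on WT replicates 1 to 4, 10.84, 10.38 and 10.25 on ASC-/- replicates 1 to 3 and 8.36, 8.05 and 8.16 on Casp1-/- replicates 1 to 3. The Casp1-/- arrays lay more than 1 unit below the lowest of the others, while WT and ASC-/- overlapped. The Casp1-/- minus WT difference was -1.91 ± 0.28 (SE, adjusted p = 0.0111) and the ASC-/- minus Casp1-/- difference 2.30 ± 0.30 (SE, adjusted p = 0.00957). ASC-/- minus WT was 0.38 ± 0.28 (SE), with a 95% interval from -0.25 to 1.02. With the spike-in block the Casp1-/- difference was -1.29 (adjusted p = 0.167). Without Casp1-/- replicate 2 it was -1.84 (adjusted p = 0.059), and the ASC-/- minus Casp1-/- difference missed the threshold without Casp1-/- replicate 2 (2.23, adjusted p = 0.0505) or ASC-/- replicate 1 (2.12, adjusted p = 0.0527).

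Atf3, a leucine zipper factor induced by stress and Toll-like receptor signals and known to restrain inflammatory genes in macrophages, had the widest spread. It was 9.17, 9.71, 11.28 and 10.45 in WT, 10.91, 10.42 and 10.07 in ASC-/- and 7.52, 6.54 and 8.00 in Casp1-/-. Again the 3 Casp1-/- arrays were below all others, and Casp1-/- replicate 2 was the lowest. Casp1-/- minus WT was -2.80 ± 0.50 (SE, adjusted p = 0.0172), and ASC-/- minus Casp1-/- was 3.11 ± 0.54 (SE, adjusted p = 0.0149). For ASC-/- minus WT the difference was 0.32 ± 0.50 (SE), with an interval of -0.81 to 1.44. The Casp1-/- difference with the spike-in block was -1.81 (adjusted p = 0.314). It missed the threshold without Casp1-/- replicate 1 (-2.88, adjusted p = 0.0555), Casp1-/- replicate 2 (-2.39, adjusted p = 0.0746) or WT replicate 4 (-2.70, adjusted p = 0.0515). ASC-/- minus Casp1-/- missed it without Casp1-/- replicate 2 (2.71), ASC-/- replicate 1 (2.89) or ASC-/- replicate 2 (3.13).

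The other leucine zipper members, Junb, Jun and Fosb, passed in no comparison. Junb, a Jun protein that often limits Jun itself, was 5.49, 6.18, 6.70 and 5.97 in WT, 6.30, 5.57 and 5.99 in ASC-/- and 5.11, 5.35 and 5.07 in Casp1-/-. The Casp1-/- arrays were lowest and just above the background edge, so the size of the difference is uncertain. At -0.91 ± 0.26 (SE, adjusted p = 0.0627) it missed the threshold, and without WT replicate 1 it passed (-1.11, adjusted p = 0.0152). With the spike-in block it was -0.32.

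Jun, the partner of Fos in AP-1, was 8.28, 8.51, 8.99 and 8.93 in WT, 8.86, 8.69 and 8.77 in ASC-/- and 8.54, 8.57 and 8.87 in Casp1-/-. The genotypes overlapped throughout. Its difference was -0.018 in Casp1-/- (interval -0.41 to 0.37) and 0.097 in ASC-/- (interval -0.29 to 0.49). A second probe set of Jun gave -0.42 ± 0.33 in Casp1-/- and 0.0054 ± 0.33 in ASC-/- (SE), neither past the threshold. Fosb, which encodes a Fos-like subunit, was listed at 2.96 to 3.54 on all 10 arrays, within background, and no fold is given for it.

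Of the EGR zinc finger factors, Egr2 fell in Casp1-/- and Egr1 passed in no comparison. Egr2, which in other settings is induced in macrophages and T cells, was 8.04, 8.40, 9.48 and 8.35 in WT, 8.91, 8.26 and 8.29 in ASC-/- and 6.60, 5.94 and 6.86 in Casp1-/-. The Casp1-/- arrays lay below all others by more than 1 unit. Casp1-/- minus WT was -2.10 ± 0.35 (SE, adjusted p = 0.0138), ASC-/- minus Casp1-/- 2.02 ± 0.37 (SE, adjusted p = 0.0180) and ASC-/- minus WT -0.081 ± 0.35 (SE), with an interval of -0.86 to 0.70. The second Egr2 probe set gave -2.33 ± 0.40 (SE, adjusted p = 0.0165) in Casp1-/- minus WT. With the spike-in block the first gave -1.58 (adjusted p = 0.236), and without Casp1-/- replicate 2 it gave -1.84 (adjusted p = 0.0665). ASC-/- minus Casp1-/- missed the threshold without Casp1-/- replicates 1 (2.09) or 2 (1.76) or ASC-/- replicates 1 (1.81) or 2 (2.13).

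Egr1, the most widely used marker of early gene induction, was 9.52, 9.08, 9.46 and 9.11 in WT, 9.27, 8.47 and 8.96 in ASC-/- and 8.87, 8.93 and 8.37 in Casp1-/-. The Casp1-/- arrays were all below WT, by a small margin, and ASC-/- overlapped both. The Casp1-/- difference, -0.57 ± 0.21 (SE, adjusted p = 0.125), missed the threshold, and so did the ASC-/- difference of -0.39 ± 0.21 (SE). Egr1 was highest on WT replicate 1, where the mean of 7 smooth muscle markers was 10.53 against 7.05 to 9.19 on the other arrays. The part of that tissue in the Egr1 level was not tested.

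Nr4a1, an orphan nuclear receptor, was 7.15, 6.72, 6.87 and 6.68 in WT, 7.21, 6.81 and 7.45 in ASC-/- and 6.75, 6.84 and 6.89 in Casp1-/-. The groups overlapped. Its differences from WT were 0.30 ± 0.16 in ASC-/- and -0.029 ± 0.16 in Casp1-/- (SE), neither past the threshold.

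Dusp1, the phosphatase that dephosphorylates p38, JNK and ERK in the nucleus, was 10.73, 10.25, 11.04 and 11.68 in WT, 11.86, 11.56 and 11.62 in ASC-/- and 9.78, 10.49 and 10.37 in Casp1-/-. The null genotypes did not overlap each other, and WT spanned the gap between them. ASC-/- minus Casp1-/- was 1.46 ± 0.32 (SE, 2.76-fold, adjusted p = 0.0299). Against WT the differences, 0.75 ± 0.30 in ASC-/- minus WT (unadjusted p = 0.0331, adjusted p = 1) and -0.71 ± 0.30 in Casp1-/- minus WT (adjusted p = 0.164), did not pass in limma. The call was lost without any 1 of the 6 null arrays, with differences of 1.25 to 1.60 and adjusted p of 0.0676 to 0.117. With the spike-in block it was 1.20 (adjusted p = 0.616), and with actin 3' minus 5' as a covariate 0.96 (adjusted p = 0.114).

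Ccn1, a secreted protein that binds integrins and is a target of serum response factor and YAP, was the member that lay higher in both null genotypes. It was 8.00, 8.14, 8.08 and 8.84 in WT, 8.87, 9.12 and 10.05 in ASC-/- and 8.61, 9.03 and 8.73 in Casp1-/-. All ASC-/- arrays lay above all WT arrays, though ASC-/- replicate 1 by only a little over WT replicate 4. ASC-/- minus WT was 1.08 ± 0.29 (SE, 2.11-fold, unadjusted p = 0.00451, adjusted p = 1) and Casp1-/- minus WT 0.53 ± 0.29 (SE, adjusted p = 0.277), neither past the threshold in limma. Without ASC-/- replicate 3 the first was 0.73. The second probe set of Ccn1 gave 1.10 ± 0.28 and 0.56 ± 0.28 (SE).

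Macrophage markers moved with Fos, Egr2 and Atf3. All 12 markers were measured and none lay at background. Their mean was 9.05 to 9.29 in Casp1-/-, 10.41 to 10.81 in ASC-/- and 9.83 to 11.18 in WT, with 7 of 12 falling in Casp1-/- and 0 changing in ASC-/-. WT replicate 1 had the lowest WT mean (9.83) and the lowest WT level of Fos, Egr2 and Atf3, and WT replicate 3 the highest mean (11.18) and the highest WT level of each. WT replicate 1 was also the only WT array with a high spike-in mean (7.80). It had the highest actin 3' minus 5' signal (1.05) and smooth muscle mean (10.53) of all arrays. The part of each in these levels was not tested. In a bulk sample, fewer cells of a type and less RNA per cell cannot be told apart. With the macrophage mean as a covariate, an alternative chosen after seeing the data, the Casp1-/- differences were -0.64 for Fos (adjusted p = 0.293), -0.73 for Egr2 (adjusted p = 0.504) and -0.57 for Atf3 (adjusted p = 0.62), and 3 of all 17097 genes passed in place of 1397. That mean itself differed between the genotypes, and the part of macrophage content in the result was not otherwise tested. Adipocyte marker means, at 12.83 to 12.92, were above those of WT (11.76 to 12.57) in Casp1-/-, with 1 of 7 markers, Pparg, past the threshold, named here because it was the only one. Fibroblast marker means were 7.93 to 8.11 in Casp1-/-, 8.09 to 8.73 in WT and 8.35 to 8.49 in ASC-/-, with 7 of 9 differences from WT below 0 in Casp1-/- and 1 gene, Col1a1, falling (-1.07). Against Casp1-/-, Col1a1 (1.44) and Col3a1 (0.39) were higher in ASC-/-. All 10 endothelial markers had differences above 0 in Casp1-/- minus WT (median 0.52), none past the threshold in limma and 7 with an unadjusted p under 0.05 (27.6% of all genes in either direction). Egfl7 was lower in ASC-/- than in Casp1-/- (-0.79). Of 6 measured T cell markers 1, Cd247, rose in Casp1-/-, while 4 of the 6 differences from WT lay below 0 (median -0.0084). These marker genes are named because each was 1 of few called, after their values were seen. Their part in the members' differences was not tested.

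**Figure D3:**
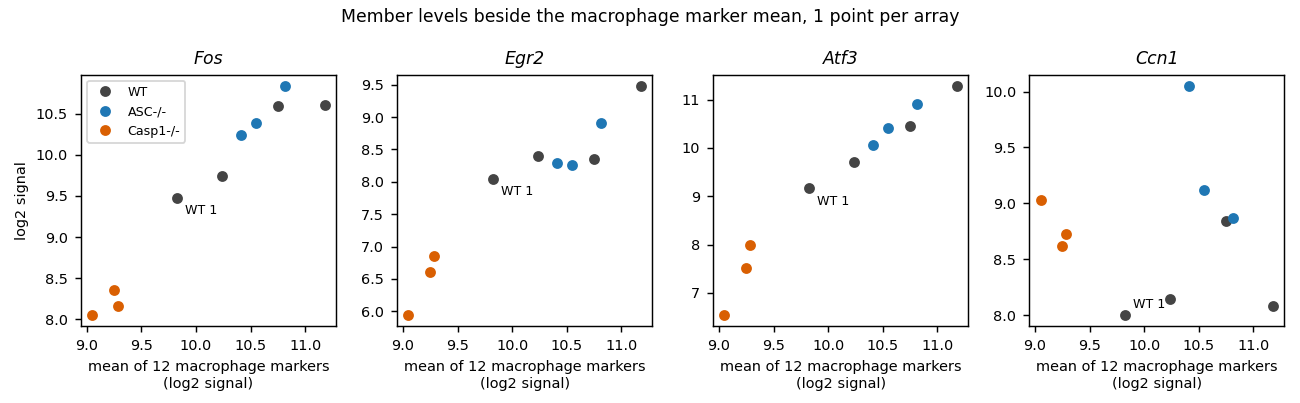
Log2 signal of Fos, Egr2, Atf3 and Ccn1 (y axes) against the mean log2 signal of 12 macrophage markers (x axis), 1 point per array, coloured by genotype, with WT replicate 1 named. For Fos, Egr2 and Atf3 the Casp1-/- arrays lie at the lower left (marker means of 9.05 to 9.29) and WT replicate 3 at the right (11.18), while Ccn1 shows no such order.

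The members differed in how alike their patterns were. Over the 10 arrays Pearson's r between Atf3 and Egr2 was 0.98, between Atf3 and Fos 0.97 and between Egr2 and Fos 0.93. With each genotype's mean removed these were 0.92, 0.83 and 0.68. Ccn1 stood apart, at r = -0.17 to 0.078 with these 3 genes. The arrays share scaling and the division by genotype, so these values are descriptions only. Of all other genes, those most like the members' mean profile (each member first centred and scaled, 10 arrays) were 3110082I17Rik (r = 0.98), Nipa2 (0.98), Fubp3 (0.98), Sfi1 (0.97), Hmg20b (0.97) and Srgn (0.97). Srgn, which encodes the granule proteoglycan of blood cells, had means of 11.58 in WT, 11.77 in ASC-/- and 11.17 in Casp1-/-.

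Other genes of the response did not move as one with the members, though some lists leaned the same way. In ASC-/- minus WT 0 of 115 genes in 8 related lists passed in limma. Counts and medians of these lists include genes at background on every array, among them 4 of 20 transcription factors and 2 of 9 phosphatases. The smallest unadjusted p of each list belonged to Fosl2 (0.38), Maff (0.42), Errfi1 (0.80), Dusp9 (0.37), Rps6ka5 (-0.19), Sik1 (0.93), Bag3 (0.21) and Ddit4 (0.74), given as log2 differences. Sik1, a kinase induced through CREB, and Errfi1, a feedback inhibitor of the EGF receptor, were higher on all ASC-/- arrays than on all WT arrays, as were 1.33% of all genes. By list this held for 3 of 27 signalling and secreted genes, 1 of 20 transcription factors and 1 of 10 corepressor and feedback genes. In the ATF4 list 1 of 10 genes was lower on all ASC-/- arrays than on all WT arrays, as were 1.86% of all genes. Sik1 was 5.30, 5.08, 5.93 and 6.17 in WT and 6.32, 6.55 and 6.77 in ASC-/-.

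In Casp1-/- minus WT 11 of the 115 passed, of which 8 rose and 3 fell, where 4.31% of all genes rose and 3.86% fell. The counts below of 1 in 20, 1 in 22 and 1 in 27 lie near the share that rose and are no result about those lists. A single gene that rose among 9 phosphatases, 8 heat shock genes or 10 ATF4 genes is no result about its list either. Of 9 other AP-1 genes 2 rose, Atf7 (0.60 ± 0.11, SE) and Atf2 (0.30 ± 0.073, SE), which bind CRE sequences, and 1 fell, the broadly expressed Jund (-0.44 ± 0.096, SE), with a list median of -0.25. Atf7 was 4.82 to 5.04 in WT, at the background edge, so the size of its difference is uncertain. Of 20 other early transcription factors 1 rose, the clock-linked repressor Bhlhe40 (0.81 ± 0.21, SE), and 0 fell (median -0.088). Of 27 measured signalling and secreted early genes 1 rose, Hbegf, a ligand of the EGF receptor. It was 5.15, 5.46, 5.25 and 4.66 in WT and 6.24, 6.92 and 6.10 in Casp1-/-, without overlap, a difference of 1.29 ± 0.22 (SE, adjusted p = 0.0161). The WT values lie near the background edge. In that list 19 of 27 differences lay below 0 and 8 above, with a median of -0.18.

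Of 9 other dual-specificity phosphatases Dusp4, which acts on ERK and JNK in the nucleus, rose in Casp1-/-. It was 7.34, 7.56, 7.70 and 6.98 in WT and 8.41, 8.57 and 8.22 in Casp1-/-, a difference of 1.01 ± 0.17 (SE, adjusted p = 0.0138), with a list median of 0.34, while Dusp1 differed by -0.71 without passing. Of 22 measured upstream kinases and factors 1 rose, Mapk9, which encodes JNK2 (0.32 ± 0.079, SE), with a list median of -0.0095. Of 10 corepressor and feedback genes 2 fell (median -0.029). These were Nab2, a corepressor that EGR proteins induce and that binds them (-1.08 ± 0.28, SE, adjusted p = 0.0478), and Spred1, an inhibitor of RAS signalling (-0.86 ± 0.22, SE, adjusted p = 0.0449). Both shrank with the spike-in block, to -0.25 and -0.30.

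Lists of stress genes served to read handling and the integrated stress response. Of 8 measured heat shock genes 1 rose in Casp1-/-, the small chaperone gene Hspb1 (0.75 ± 0.19, SE), with a list median of -0.21, and the list mean was 10.18 to 10.22 in Casp1-/-, 10.18 to 10.33 in WT and 10.20 to 10.33 in ASC-/-. Of 10 ATF4 stress genes, a pathway that can raise Atf3, 1 rose, the asparagine synthetase gene Asns (0.73 ± 0.19, SE), with a list median of 0.28. Medians over all genes are those given above. With the spike-in block 1 of the 115 genes passed in Casp1-/- minus WT, and with 1 array left out 0 to 32 did.

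ASC-/- minus Casp1-/- gave 11 of the 115 genes past the threshold, 6 higher and 5 lower, where 3.85% of all genes were higher and 3.54% lower. These counts lie near those shares and are no result about the related lists. Higher in ASC-/- were Jund (0.43), the Fos-like gene Fosl1 (on every array below the background edge, so no size is given), the cell cycle inhibitor gene Cdkn1a (0.73), Mrtfa, a coactivator of serum response factor (0.63), Spred1 (1.02) and Nab2 (1.20). Lower were Atf2 (-0.35), Bhlhe40 (-1.08), Hbegf (-0.998), Dusp4 (-1.28) and Asns (-0.97). No heat shock gene passed, and Bag3 had the smallest p of them (0.43). For the 27 signalling and secreted early genes 22 differences lay above 0 and 5 below. Their median was 0.27, against -0.042 over all genes. On 12 of them the ASC-/- arrays lay above all Casp1-/- arrays and on 2 below, against 17.3% and 23.1% of all genes. The 9 other phosphatases had 4 differences above 0 and 5 below, with a median of -0.41. With the spike-in block 0 of the 115 passed, and the differences shrank to 0.092 for Nab2, 0.28 for Spred1, 0.21 for Jund and -0.42 for Asns. Without single arrays 0 to 25 passed.

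**Figure D4:**
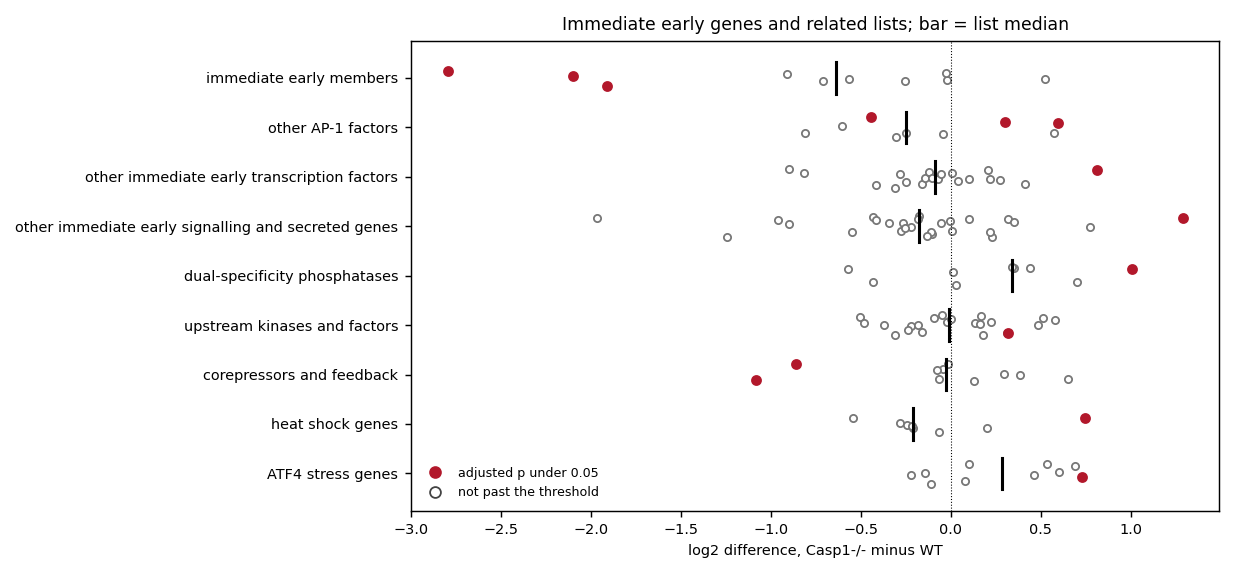
Log2 differences in Casp1-/- minus WT (x axis) of the 10 members and of 8 related lists (rows), 1 point per gene, filled where the adjusted p was under 0.05, with a bar at the list median. The members' median (-0.64) lies lowest, and filled points of the other lists lie on both sides of 0.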

How the data were processed

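Expression was measured on Affymetrix HT_MG-430 PM arrays, 1 per mouse, for which the labels describe oligo-dT priming and biotin labelling of total RNA. Values are log2 signals as deposited; the submitters' processing notes name RMA as the authors' tool. RMA forces a like distribution on every array and compresses changes near background. No source used here gives a genome build for the probe sets.

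Of 45141 probe sets, 28898 had 1 gene symbol, 551 several and 104 were controls; symbols were updated by gene ID. The brightest probe set stood for each of 17097 genes. limma 3.58.1 in R 4.3.3 fitted 1 mean per genotype over all 10 arrays (7 residual and 2.43 prior degrees of freedom). Tests were two-sided, with Benjamini-Hochberg adjustment over all genes and a threshold of 0.05, and the fit was tested on simulated data. "Rose" and "fell" mean past it. The labels speak of 3 to 4 mice a group and give no cage or litter, so p-values measure the spread between these samples alone. The number of arrays limits the precision. Beside the members and deleted genes, up to 4 genes per related list and comparison past the threshold were named by smallest p, or 1 where none passed. The members and lists were chosen with earlier results of these data known, so no list was tested as a set. Promoters came from RefSeq (GRCm38.p6), and motif matching used Python 3.11.15.

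Alternatives were other scalings, probe set rules and empirical Bayes settings, blocks, a covariate and leaving out each array.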

Additional observations from a re-analysis of the deposited data

Results flagged for a closer look

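The effects of the 2 null genotypes differed by the direct ASC-/- minus Casp1-/- test of limma for 4 members: Atf3 (3.11), Fos (2.30), Egr2 (2.02) and Dusp1 (1.46), as log2 differences. Among related genes it did so for Nab2 (1.20), Spred1 (1.02), Cdkn1a (0.73), Mrtfa (0.63), Jund (0.43), Atf2 (-0.35), Asns (-0.97), Hbegf (-0.998), Bhlhe40 (-1.08) and Dusp4 (-1.28). Fosl1 was listed with 0.84, but its signal lay below the background edge on every array, so that value gives no size. None of these passed with the spike-in division as a block.

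Among the 4 WT arrays, 1 value stood far from the others for 2 of 32 genes examined: Ccn1 on WT replicate 4 (8.84 against 8.00 to 8.14) and Mrtfa on WT replicate 3 (7.73). Chance flags about 1 in 20 such groups.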

How the results depend on the processing

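Of the 10 members, 3 passed in Casp1-/- minus WT and 4 in ASC-/- minus Casp1-/-. Both counts were 0 with the replicate block, with the spike-in division as a block and with the added macrophage covariate; with the actin covariate the second was 1. Without single arrays they ranged from 0 to 4 and from 0 to 5. Both were 0 without Casp1-/- replicate 2, and the second was 0 without ASC-/- replicate 1, 1 without ASC-/- replicate 2 and 2 without Casp1-/- replicate 1. The differences that passed kept their directions in all 22 alternatives. Over all genes, 1397 and 1264 passed, against 120 and 63 with the spike-in block, 9 and 19 with the replicate block and 64 and 68 without Casp1-/- replicate 2. Without single arrays they ranged from 64 to 3018 and 47 to 2615; array weights gave 2998 and 3428, only the compared genotypes 469 and 3248, and actin 231 for the second. Of the 115 related genes, 29 and 38 passed with array weights and 4 and 35 with only the compared genotypes. Deviations of same-numbered arrays correlated at -0.26 to 0.19. Arrays with unlike numbers were not compared in this way, so these values cannot settle whether the replicate numbers pair the mice.

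Directions turned only for differences not past the threshold in the fit reported, of which Junb passed under other settings (in Casp1-/- minus WT without WT replicate 1, without the dimmest genes or with array weights; in ASC-/- minus Casp1-/- with only the compared genotypes or without WT replicate 3). In ASC-/- minus WT, Jun became -0.024 with array weights, -0.036 with the spike-in block and -0.057 with the actin covariate (-0.036 to 0.20 without single arrays), and Atf3 -0.0125 with the spike-in block and -0.035 with actin (-0.0125 to 0.69 without single arrays). Junb ranged from -0.33 to 0.071 and Egr2 from -0.29 to 0.22 without single arrays. In Casp1-/- minus WT, Jun was 0.067 with the replicate block, 0.38 with the spike-in block, 0.14 with actin and 0.70 with the macrophage covariate (-0.15 to 0.086 without single arrays), Junb 0.0029 with the macrophage covariate, and Nr4a1 0.050 with array weights (-0.088 to 0.068 without single arrays). In ASC-/- minus Casp1-/-, Jun was -0.42 with the spike-in block, -0.20 with actin and -0.65 with the macrophage covariate, Junb -0.016 with the spike-in block and -0.20 with the macrophage covariate, and Egr1 -0.0105 to 0.39 without single arrays. The cause was not tested.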
